A study of Mus musculus with 4 samples.

Results

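The 33 mouse genes described here are the protein-coding glutathione transferases and glutathione peroxidases in RNA sequencing of mouse embryonic fibroblasts (MEFs). The rule that defines them uses gene symbols and no measured value, and takes the rows whose symbol begins with Gsta, Gstk, Gstm, Gsto, Gstp, Gstt, Gstz, Mgst or Gpx followed by a digit, out of 55487 genes counted, of which 21936 were protein coding. They comprise 22 cytosolic, mitochondrial or related soluble transferases, 3 microsomal transferases (Mgst1 to Mgst3) and 8 peroxidases (Gpx1 to Gpx8). MEFs are primary cells taken from mouse embryos, and their divisions in culture are limited. Wild-type MEFs, at passage 2 by the sample labels while the paper's text names the next passage, were either left untreated or cultured for 24 h with 100 ng/mL of pigment epithelium-derived factor (PEDF), a secreted protein of the serpin family. Per the paper's methods the embryos were of the C57BL/6J strain and the cells grew under atmospheric oxygen in medium with serum and 2-mercaptoethanol. Each of 2 experiments, which used MEFs prepared from different sets of embryos, gave 1 control library and 1 PEDF library, so that there were 2 libraries in a group. The paper addresses how PEDF acts on senescence and on reactive oxygen species in MEFs, which makes the level of enzymes that detoxify peroxides one of the questions the comparison can address.

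Glutathione is a small thiol-containing peptide that cells use to neutralise peroxides and reactive chemicals. Glutathione peroxidases reduce hydrogen peroxide and organic hydroperoxides with electrons from glutathione, whereas glutathione transferases join glutathione to electrophilic compounds so that the conjugates can be exported. Microsomal transferases are membrane proteins of separate ancestry, and some of them also reduce lipid hydroperoxides. In fibroblasts these enzymes are part of the defence against oxidative damage in culture, and several transferases are textbook targets of the transcription factor Nrf2.

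The libraries held 14722848 to 18144640 counts, and 22135 to 22647 genes were detected in each. Fibroblast markers were abundant in every library, with Col1a1 at 7226 to 10587 TPM, a unit that scales counts to gene length and library total. In sum, 4 adipocyte markers had 0.434 to 0.937 TPM and 5 endothelial markers 6.83 to 7.24 TPM, whereas 5 neural markers had 115 to 136 TPM. Macrophage, hepatocyte, epithelial and skeletal muscle markers were present and moved with the experiment, as given beside that comparison below. Neither treatment group stood apart in the totals, and scaling factors from edgeR's TMM method lay between 0.983 and 1.01. In bulk RNA, fewer cells of a type and less RNA per cell cannot be told apart. The groups were compared in edgeR by the quasi-likelihood test with the treatment as the sole term, and p-values were adjusted by Benjamini and Hochberg's method across 19384 genes, those whose counts summed to 10 or more. Values of a pair of libraries are given in the order of experiments 1 and 2 throughout. With 2 libraries in a group, p-values rest on a spread shared between genes.

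The peroxidases differ at the residue that reacts with peroxide, and the codon for it is shown because it separates the selenium-dependent members from the others. Each sequence below holds 30 bases of coding sequence read on the gene's own strand of GRCm38 with GENCODE release M21, and the capitals mark the codon of the reactive residue.
Gpx1: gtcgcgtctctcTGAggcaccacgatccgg
Gpx2: gtggcgtcactcTGAggaacaactacccgg
Gpx3: gtagccagctacTGAggtctgacagaccaa
Gpx4: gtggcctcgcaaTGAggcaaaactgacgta
Gpx5: gtggctacctatTGCggtctgacaatccag
Gpx6: gtggcatccttcTGTggcctgacagctacg
Gpx7: gtagctagcgaaTGTggcttcacagaccag
Gpx8: gtggctagtgacTGCcgcttcacagacaag
Gpx1, Gpx2, Gpx3 and Gpx4 carry TGA, a stop codon elsewhere that is read here as selenocysteine, and Gpx5, Gpx6, Gpx7 and Gpx8 carry TGC or TGT for cysteine. The codon of Gpx1 lies in exon 1 at chr9:108339451-108339453 on the plus strand, and that of Gpx4 in exon 3 at chr10:80054737-80054739 on the plus strand. For Gpx3 it lies in exon 2 at chr11:54907256-54907258 on the plus strand. For Gpx7 it lies in exon 2 at chr4:108403430-108403432 and for Gpx8 in exon 2 at chr13:113045661-113045663, both on the minus strand. Selenocysteine and cysteine members were both expressed in MEFs, as 3 of the 4 genes with TGA (Gpx1, Gpx3 and Gpx4) and 2 of the 4 genes with TGC or TGT (Gpx7 and Gpx8).

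Of the 33 members, 24 had at least 10 counts in total and were tested. Gpx2, Gpx5, Gpx6 and Gstm3 had no count in any library, which allows 0.168 to 0.203 CPM (counts scaled to the TMM-adjusted library total) in each by counting error alone. Gsta1, Gsta2, Gstp2, Gstp3 and Gstt4 had 1 to 9 counts in total. The tested members were short genes, with 1048 to 5088 exonic bases and a median of 1693, whereas the median over all tested genes was 3621.

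Peroxidases made up most of the expression. In TPM, they held 70.0% of the summed level of all members, and the transferases held 30.0%. Gpx1, the cytosolic peroxidase that reduces hydrogen peroxide, was the most abundant member, with 619 and 589 TPM in the controls and 652 and 641 TPM with PEDF. Gpx4, which reduces lipid hydroperoxides inside membranes, and Gpx8, a peroxidase of the endoplasmic reticulum, followed at mean levels of 312 and 299 TPM, and their ranges over the libraries overlapped. The most abundant transferase was Gsto1, an omega-class enzyme that reduces rather than conjugates, at 207 to 247 TPM, apart from the genes above and below it. Gpx7, another peroxidase of the endoplasmic reticulum, Gstp1, the pi-class transferase, and Gpx3, a secreted peroxidase, formed the next group at 132, 113 and 102 TPM on average, with overlapping ranges between neighbours in the order. Gstm5 at 61.4 and Gstm1 at 53.8 TPM also overlapped. Below them came Mgst3 at 44.6, Gstm2 at 34.8, Mgst1 at 26.02, Gsta4 at 21.7 and Gstz1 at 15.2 TPM. Among these only the ranges of Mgst1 and Gsta4 overlapped. Gstm4 had a mean of 10.7 TPM, Gstt1 5.62, Gstk1 4.81 and Gstm7 4.45 TPM, with overlap between each pair of neighbours. Gstt3, Mgst2, Gstm6, Gstt2, Gsto2 and Gsta3 lay at 2.14 TPM or less.

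**Figure D1:**
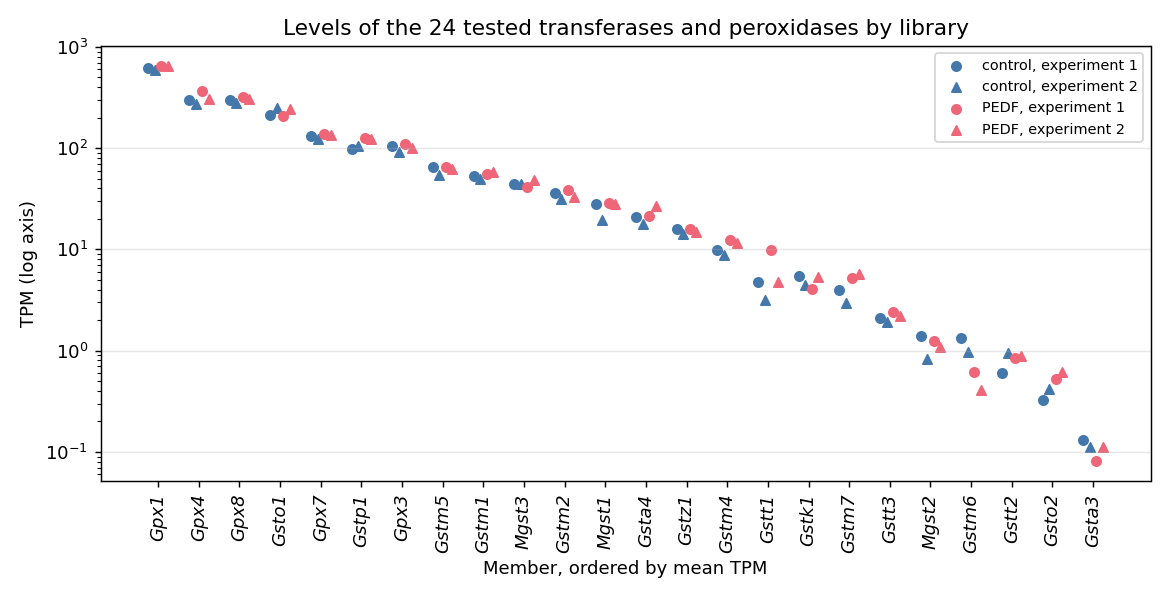
Level of each of the 24 tested members in TPM (log axis) in the 4 libraries, with genes ordered by mean TPM. Gpx1 lies above all others at 589 to 652 TPM, and both PEDF points lie above both control points for Gpx4 and Gstp1, among others.

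Of the classes, the peroxidases summed to 1452 and 1354 TPM in the control libraries, compared with 1589 and 1488 TPM with PEDF, a ratio of PEDF to control of 1.09 in experiment 1 and 1.10 in experiment 2. The pi class, which was almost all Gstp1, had ratios of 1.27 and 1.17. The omega class stayed close to 1, at 0.985 and 0.992. The mu class, encoded by a cluster of neighbouring genes on chromosome 3, had ratios of 1.05 and 1.15, the alpha class 1.02 and 1.51 and the microsomal class 0.976 and 1.21. The theta class, the least abundant but for the kappa class, had ratios of 1.67 and 1.30. Summed over all members the level was 2054 and 1962 TPM in the control libraries, compared with 2225 and 2160 TPM with PEDF. These sums are descriptions of single libraries and carry no test.

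**Figure D2:**
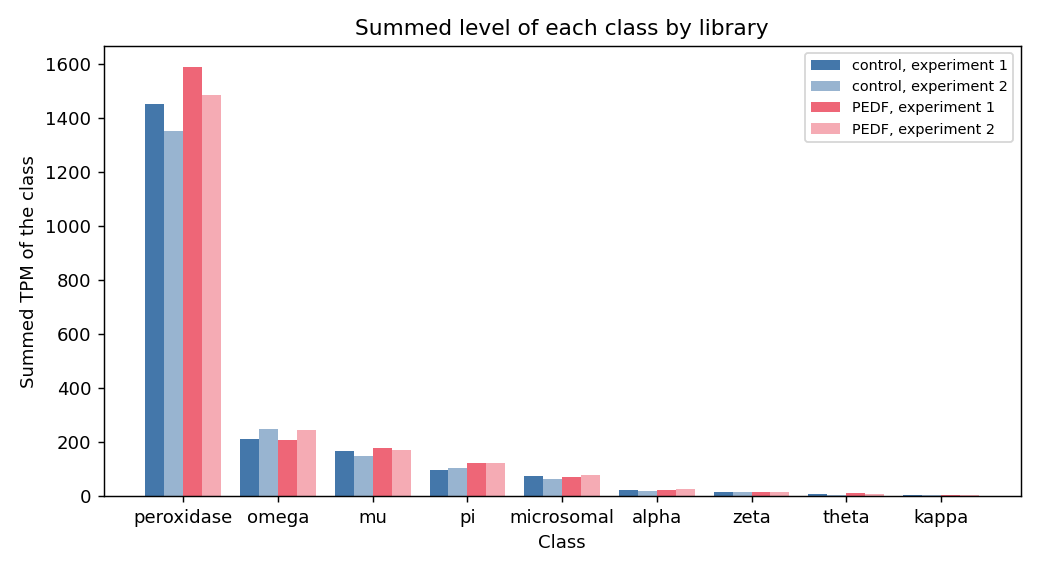
Summed TPM of each class in the 4 libraries, as bars from 0 without error bars because each bar is 1 library. The peroxidase bars of the PEDF libraries, at 1589 and 1488 TPM, exceed those of the control libraries at 1452 and 1354 TPM, while the omega bars differ between experiments more than between treatments.

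Most members lay slightly higher with PEDF. The log2 fold change, which is positive where PEDF is higher, was above 0 for 21 of the 24 tested members and below 0 for Gsta3, Gstk1 and Gstm6, with a median of 0.14. Over all tested genes 50.2% were higher and the median was 0.00. In edgeR's quasi-likelihood test none of the members passed an adjusted p of 0.05, beside 0.00516% of all genes (1 gene), and the smallest adjusted p of a member was 0.551, for Gstp1. At an unadjusted p under 0.05 there were 4 members, all higher with PEDF (Gstp1, Gpx4, Gstt1 and Gstm7), or 16.7% of the tested members beside 6.88% of all genes. DESeq2 gave none after adjustment, beside 3 of all genes, and 2 at this limit, for which no share over all genes was taken. With 1 library left out the median log2 fold change of the members lay between 0.080 and 0.249.

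The experiments used cells of different embryos, so the experiment was also entered as a block, which takes the difference between preparations out of the spread. With the block, Gpx4 and Gstp1 had an adjusted p under 0.05 in edgeR, which is 8.33% of the tested members beside 3.75% of all genes (726 genes). At an unadjusted p under 0.05 the block gave 10 members, all higher with PEDF, or 41.7% beside 14.6% of all genes. With the length trend of each library removed as well there were 5 (Gpx4, Gstp1, Gstt1, Mgst1 and Gstm7), or 20.8% beside 11.7% of all genes. Both calls depend on the block, and DESeq2 with a block gave 1, Gpx4, among the 4 members for which it set an adjusted p. Markers of cell types also moved with PEDF in the block fit. Of 6 macrophage markers 1 passed adjustment (Lyz2, higher), with summed levels of 223 and 135 TPM in the controls and 226 and 189 TPM with PEDF. Of 6 skeletal muscle markers 2 did (Des and Acta1, higher), with 364 and 432 TPM in the controls and 395 and 474 TPM with PEDF. Of 10 fibroblast markers 2 were higher (Dcn and Lum) and 4 lower (Col1a1, Col1a2, Pdgfrb and Fn1). With the length trend removed as well, none of the macrophage or skeletal muscle markers passed adjustment, and 2 fibroblast markers were higher and 3 lower, without Col1a2. The part of these markers in the values of the members was not tested.

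Both PEDF libraries lay above both control libraries in CPM for 11 of the 24 members, or 45.8%, beside 18.9% of all genes. Both lay below for 1 member, Gstm6, or 4.17%, beside 18.4% of all genes. The other 12 overlapped in CPM. Of these, Gstt1 and Mgst1 had both PEDF libraries just above both controls in TPM.

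Gpx4 (ENSMUSG00000075706, chromosome 10 from 80047166 to 80056439, plus strand) had 184 and 163 CPM in the controls and 231 and 184 CPM with PEDF. The PEDF libraries lay just above the controls, because PEDF in experiment 2 (184.2 CPM) barely passed control in experiment 1 (183.6 CPM). Group means were 173 ± 14.8 and 208 ± 33.4 CPM (SD, n = 2 each), a 1.20-fold difference. The log2 fold change was 0.26 (SE 0.10) with an unadjusted p of 0.0238 and an adjusted p of 0.696 in edgeR. With the block it was 0.26 (SE 0.05, 95% interval 0.16 to 0.35) with an adjusted p of 3.28e-05. Within the experiments the log2 ratio of PEDF to control was 0.33 (95% counting interval 0.26 to 0.41) and 0.18 (0.11 to 0.25). The size rests in part on the PEDF library of experiment 1, without which the log2 fold change was 0.09, or 0.18 without the control library of experiment 2. It was 0.42 (adjusted p = 0.0722 in edgeR) without the PEDF library of experiment 2 and 0.35 without the control library of experiment 1, all in the fit with no block.

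Gpx4 has processed copies in the genome that can share its reads. Of its windows of 50 transcript bases, 34.7% also occur in another gene, Gpx4-ps2 or Gpx4-ps1. The copy Gpx4-ps2 had 395 and 428 counts in the control libraries, compared with 530 and 419 with PEDF. The authors counted uniquely mapped reads, so reads that fit both gene and copy are not in these counts and the value of Gpx4 is uncertain to that extent. With the counts of the copies added to the gene, a setting chosen after seeing the data, the log2 fold change was 0.25 and with the block 0.24, and the call with the block was kept.

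Gpx1 reached 317 and 293 CPM in the control libraries, compared with 343 and 321 CPM with PEDF, which did not overlap. Its log2 fold change of 0.12 (SE 0.07) had an adjusted p of 0.763 in edgeR, or 0.121 with the block. The log2 ratios within the experiments were 0.11 (95% counting interval 0.06 to 0.17) and 0.13 (0.08 to 0.19). Gpx8 followed the same order of libraries, with 110.0 and 100.4 CPM in the controls and 123 and 110.2 CPM with PEDF, and a log2 fold change of 0.15 (SE 0.08, adjusted p = 0.746 in edgeR). Its log2 ratios were 0.16 (95% counting interval 0.06 to 0.25) and 0.13 (0.04 to 0.23). Gpx7 had 60.2 and 54.7 CPM in the controls and 65.6 and 60.7 CPM with PEDF, again without overlap, and a log2 fold change of 0.14 (SE 0.08, adjusted p = 0.764 in edgeR). Gpx3 overlapped between the groups, with 68.0 and 57.4 CPM in the controls and 72.0 and 63.5 CPM with PEDF, and a log2 fold change of 0.11 (SE 0.10, adjusted p = 0.829 in edgeR). In both experiments the 5 tested peroxidases had ratios above 1, and their fold changes over all libraries were 1.08 to 1.20. Without the control library of experiment 2, in the fit with no block, the log2 fold changes were 0.065 for Gpx1, 0.080 for Gpx8, 0.068 for Gpx7 and -0.0087 for Gpx3. Leaving out any 1 library gave 0.065 to 0.177 for Gpx1, 0.068 to 0.205 for Gpx7 and 0.067 to 0.224 for Gpx8. Gpx4 alone of them passed adjustment in the block fit. The members with selenocysteine (Gpx1, Gpx3 and Gpx4) spanned log2 fold changes of 0.11 to 0.26 and the cysteine members Gpx7 and Gpx8 lay within that span.

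Gstp1 (ENSMUSG00000060803, chromosome 19 from 4035407 to 4037985, minus strand), the pi-class enzyme that conjugates electrophiles, had 53.7 and 56.4 CPM in the control libraries, compared with 70.4 and 66.5 CPM with PEDF. Both PEDF libraries lay clear of the controls. The means were 55.1 ± 1.88 and 68.4 ± 2.78 CPM (SD, n = 2 each), a 1.24-fold difference. The log2 fold change was 0.31 (SE 0.08) with an unadjusted p of 0.00139 and an adjusted p of 0.551 in edgeR, and with the block 0.31 (SE 0.07, 95% interval 0.18 to 0.44) with an adjusted p of 0.000343. Within the experiments the log2 ratio was 0.39 (95% counting interval 0.26 to 0.52) and 0.24 (0.11 to 0.36), and leaving out any 1 library kept the log2 fold change between 0.27 and 0.35. Its paralog Gstp2 and the copy Gstp-ps share 33.7% of its windows of 50 bases. Gstp2 had 1 to 4 counts in a library and Gstp-ps 70 to 112, and with those copies added the log2 fold change was still 0.31 with or without the block.

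Gstt1, a theta-class transferase that acts on small halogenated compounds, had the largest fold change among the members with an unadjusted p under 0.05, but on few reads. It had 38 and 30 counts in the control libraries, compared with 85 and 45 with PEDF, or 2.57 and 1.68 CPM against 5.47 and 2.53 CPM. The PEDF library of experiment 1 stood above the other 3, and PEDF in experiment 2 overlapped the controls. In the same library the summed level of the erythroid markers was highest, at 4.09 TPM beside 1.04 and 0.473 TPM in the controls and 0.398 TPM with PEDF in experiment 2, on at most 10 counts of a marker in a library, and its part was not tested. The log2 fold change was 0.91 (SE 0.37, unadjusted p = 0.0255, adjusted p = 0.696 in edgeR), and with the block 0.86 with an adjusted p of 0.0506. Leaving out 1 library with no block gave 0.26 to 1.37, the lowest without the PEDF library of experiment 1. Gstm7, a mu-class transferase, had 33 and 29 counts in the controls and 47 and 57 with PEDF, which did not overlap. Its log2 fold change was 0.70 (SE 0.31, unadjusted p = 0.0385, adjusted p = 0.712 in edgeR).

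The more abundant mu-class members had smaller fold changes. Gstm1 had 27.8 and 25 CPM in the controls and 29.9 and 29.5 CPM with PEDF, without overlap, and a log2 fold change of 0.17 (SE 0.10, adjusted p = 0.763 in edgeR), or 0.09 to 0.25 with 1 library left out. Gstm4 had 6.03 and 5.21 CPM against 7.72 and 6.85 CPM, also without overlap, and its log2 fold change was 0.38 (SE 0.19, adjusted p = 0.739). Gstm2 with 21.3 and 18.1 against 23.9 and 19.3 CPM overlapped between the groups, as did Gstm5 with 29.5 and 24.1 against 30.0 and 27.4 CPM. Their log2 fold changes were 0.13 (SE 0.13) and 0.11 (SE 0.11), and they turned to -0.03 for Gstm2 without the PEDF library of experiment 1 and to -0.04 for Gstm5 without the control library of experiment 2. Of the transcript windows of Gstm1, 18.9% occur in other genes, among them Gstm3 and several copies, so its count is less certain than those of Gstm4 and Gstm7, for which the shares are 0 and 0.532%. Gstm6 went the other way, with 14 and 12 counts in the controls and 7 and 5 with PEDF, at a log2 fold change of -1.14 (SE 0.66, adjusted p = 0.760 in edgeR).

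For Gsta4, the alpha-class transferase that conjugates 4-hydroxynonenal, a product of lipid peroxidation, the control libraries had 9.42 and 7.74 CPM and the PEDF libraries 9.97 and 11.7 CPM. The groups did not overlap, yet the difference came mainly from experiment 2, with a log2 ratio of 0.59 (95% counting interval 0.28 to 0.91) beside 0.08 (-0.26 to 0.42) in experiment 1. Its log2 fold change was 0.34 (SE 0.17, adjusted p = 0.733 in edgeR), and 0.20 to 0.49 with 1 library left out, the lowest without the control library of experiment 2. Mgst1, a microsomal transferase that also has peroxidase activity, had a like pattern, with 19.9 and 13.5 CPM in the controls and 21 and 19.8 CPM with PEDF. Its control library of experiment 2 was the low one, the groups overlapped, and the log2 ratio was 0.08 in experiment 1 and 0.55 in experiment 2. The log2 fold change of Mgst1 was 0.30 (SE 0.16, adjusted p = 0.742). It was 0.04 without the control library of experiment 2 and 0.59 without that of experiment 1 (adjusted p = 0.0585 in edgeR). With 1 library of each treatment in an experiment, a difference between the experiments in the PEDF ratio could not be tested.

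The differences of Gsto1, Mgst3 and Gstz1 were within their errors. Gsto1 had 151 and 173 CPM in the controls and 153 and 172 CPM with PEDF, and its log2 fold change with the block was 0.01 (95% interval -0.09 to 0.10). Mgst3, a microsomal transferase, had 17.1 and 16.7 against 16.7 and 18.5 CPM, at 0.06 (95% interval -0.17 to 0.29). Gstz1, the zeta-class enzyme of tyrosine breakdown, had 28.7 and 24.8 against 29.7 and 26.2 CPM, at 0.06 (95% interval -0.12 to 0.25). The groups overlapped for each of them. The remaining tested members had 0.129 to 3.35 CPM and none of them had an unadjusted p under 0.05 without the block.

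**Figure D3:**
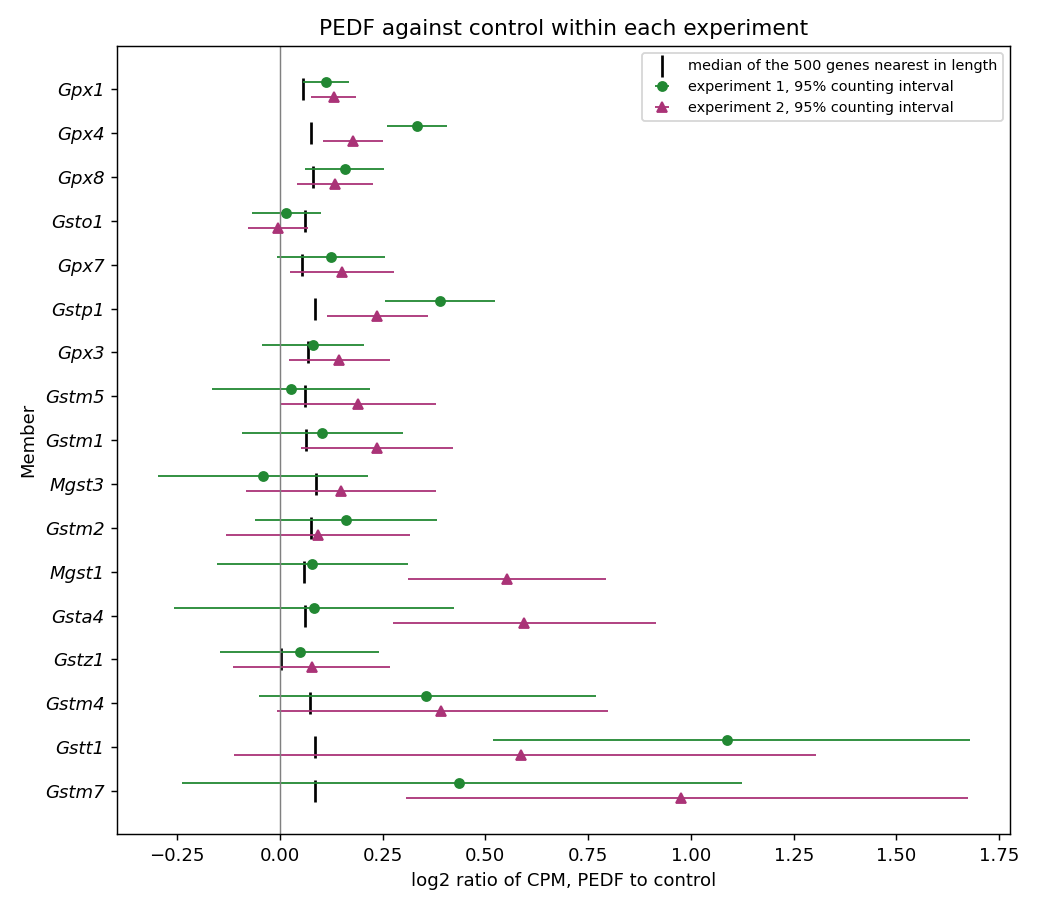
Log2 ratio of PEDF to control within experiment 1 (circles) and experiment 2 (triangles) for the 17 members given with full values, with 95% exact binomial intervals that cover counting error only, and the median log2 fold change of the 500 tested genes nearest in length (bars). Gpx1, Gpx4, Gpx8 and Gstp1 lie above 0 in both experiments with intervals that exclude it, and the points of Gsto1 lie within 0.02 of 0.

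Seen by experiment, the median log2 ratio of the tested members was 0.11 in experiment 1, with 19 of 24 higher, and 0.18 in experiment 2, with 21 of 24 higher. There were 17 members higher with PEDF in both experiments, 1 lower in both and 6 with opposite directions. Set beside the 500 genes nearest in length, whose medians had a middle value of 0.04 in experiment 1 and 0.08 in experiment 2, 17 and 19 of the 24 members lay above their neighbours, with a median excess of 0.05 and 0.11. Over all tested genes 30.1% were higher in both and 28.8% lower in both. The experiments do not share libraries. Reads copied by PCR, whose share was not measured, would make the counting intervals too narrow.

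Gene length moved with the PEDF contrast, and most members are short. Among the 2718 tested genes of 1000 to 2000 bases the median log2 fold change was 0.07 and 60.2% were higher with PEDF, while among the 8772 genes of 4000 bases or more it was -0.03 and 40.7% were higher. In the class of 1000 to 2000 bases lie 16 members, of which 14 were higher, with a median of 0.14. When this class was limited to the 1000 genes whose log2 mean CPM was above 3, their median was 0.09 and 79.3% were higher, beside 0.14 for the 11 members, all of them higher. The 5 members of 2000 to 4000 bases were all higher with a median of 0.22, beside a median of 0.04 and 59.6% over 5574 genes. For the 3 members of 4000 bases or more (Gsta3, Gstt2 and Gstz1) the median was 0.06.

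Each member was also set beside the 500 tested genes nearest to it in length. The medians of these neighbours lay between 0.00 and 0.09. Of the 24 members, 19 lay above the median of their neighbours, and the median excess was 0.07, compared with a median log2 fold change of 0.14. Gstt1 exceeded its neighbours' median by 0.82, Gstm7 by 0.61, Gstp1 by 0.23 and Gpx4 by 0.19. The excess was 0.06 for Gpx1 and 0.07 for Gpx8, and Gsto1 and Mgst3 lay below by 0.06 and 0.03. Among its neighbours Gstp1 stood at the percentile 81.8 and Gpx4 at 81.6. The neighbours were not matched in expression level, so genes of few counts are among them. Among genes with a log2 mean CPM above 3, grouped by length, the upper quartile was 0.18 around 1474.5 bases and 0.15 around 1934.5. Gstp1 lay at 0.31 and Gpx4 at 0.26.

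With the length trend of each library removed in the block fit, the median of the members was 0.09 and 19 of 24 were higher. Gpx4 and Gstp1 passed adjustment in this fit too, again 8.33% of the tested members, beside 1.81% of all genes (350 genes). Their log2 fold changes were 0.20 (adjusted p = 0.00869) and 0.25 (adjusted p = 0.0198). The other peroxidases came down to between 0.06 and 0.08. Gsto1 and Mgst3 turned to -0.05 and -0.00.

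**Figure D4:**
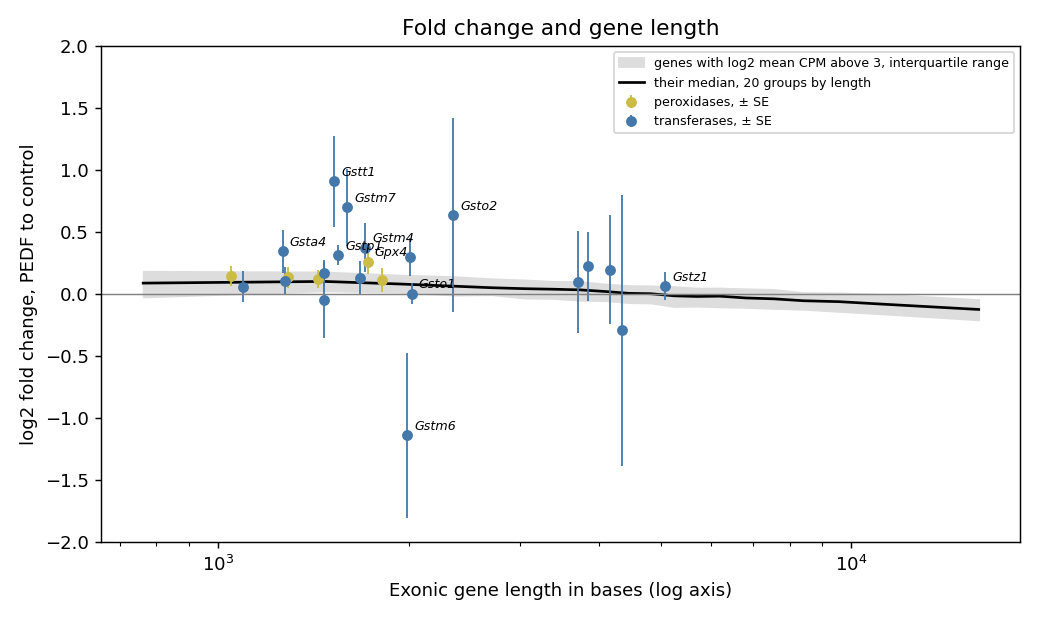
Log2 fold change of PEDF against control (± SE) of the 24 tested members by exonic length (log axis), over the median (line) and interquartile range (band) of the 10709 tested genes with a log2 mean CPM above 3 in 20 groups of equal size by length. The line falls from above 0 for short genes to below 0 for long ones, and the members, of 1048 to 5088 bases, lie mostly on the part of the line above 0.

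The preparations of MEFs differed in several members. In a fit with terms for treatment and experiment, 4 members had an adjusted p under 0.05 for experiment 2 against experiment 1, or 16.7% of the tested members beside 4.49% of all genes (870 genes). Gpx4, Gstt1 and Gpx3 were lower in experiment 2 and Gsto1 was higher. The log2 fold change of Gpx4 was -0.25 (SE 0.05, adjusted p = 3.76e-05 in edgeR), that of Gpx3 -0.21 (SE 0.07, adjusted p = 0.0306) and that of Gstt1 -0.90 (SE 0.28, adjusted p = 0.0304). Gsto1 differed by 0.18 (SE 0.05, adjusted p = 0.0117), with 151 and 153 CPM in experiment 1 and 173 and 172 CPM in experiment 2, the treatments being nearly equal within each. Of all tested members 19 were lower in experiment 2, with a median of -0.15 beside 0.00 for all genes and -0.07 for all genes of 1000 to 2000 bases. With the length trend removed 16 were lower and the median was -0.10.

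These differences depend on how the libraries are used. Without the treatment term none of the members had an adjusted p under 0.05 in edgeR, beside 11 of all genes. DESeq2 with both terms called 1, Gpx4, among the 3 members for which it set an adjusted p, and with the length trend removed edgeR called Gpx4 and Gsto1. For Gpx4 the value fell to -0.08 without the PEDF library of experiment 1 and to -0.17 without the control library of experiment 2. Gstt1 was at -0.29 without that PEDF library. These fits with 3 libraries have no treatment term, since none of the spread would be left with it. With any 1 library left out Gpx3 lay at -0.29 to -0.14 and Gsto1 at 0.18 to 0.19. Both libraries of experiment 2 were deeper, at 18144640 and 17787193 counts beside 14722848 and 15361948. Markers of other cells moved along with the experiment. The summed level of 5 hepatocyte markers (Alb, Afp, Ttr, Apoa1 and Serpina1a) was 142 and 136 TPM in the control and PEDF libraries of experiment 1 and 68.4 and 74.2 TPM in those of experiment 2, and none of the 5 was at 0 in any library. That of 6 macrophage markers was 223 and 226 TPM and then 135 and 189 TPM, mainly through Lyz2. Ptprc, another marker of that list, stayed at 0.406 to 0.696 TPM. The sum of 6 epithelial markers was 90.8 and 86.4 TPM in experiment 1 and 72.5 and 73.9 TPM in experiment 2, and that of 6 skeletal muscle markers 364 and 395 TPM and then 432 and 474 TPM. Their part in the differences between preparations was not tested.

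**Figure D5:**
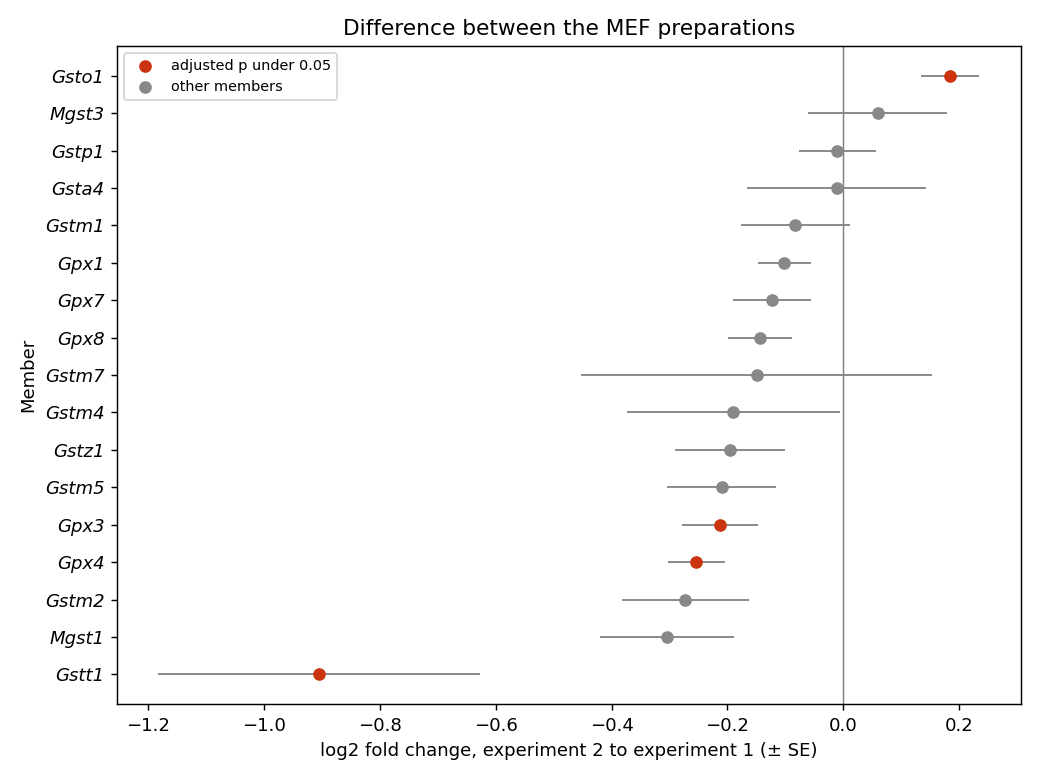
Log2 fold change of experiment 2 against experiment 1 (± SE, fit with treatment as a term) for the 17 members given with full values. Gsto1 lies highest at 0.18 and Gstt1 lowest at -0.90, and the 4 members with an adjusted p under 0.05 are drawn in red.

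The genes around these enzymes in glutathione metabolism did not lean one way. Of 72 genes in 9 lists, 68 were tested, and 33 were higher and 35 lower with PEDF, with a median log2 fold change of -0.00. In edgeR without the block 0 of them passed adjustment, and 7 had an unadjusted p under 0.05 (3 higher and 4 lower), or 10.3% beside 6.88% of all genes. With the block, 1 gene rose and 2 fell, and this share of 4.41% is near the 3.75% of all genes. Glrx3, an iron-sulfur glutaredoxin, had 193 and 167 CPM in the controls and 212 and 196 CPM with PEDF, at a log2 fold change of 0.18 with the block (adjusted p = 0.0125). The transporters Abcc1 and Abcc5 were lower. Abcc1, which exports glutathione and its conjugates, went from 125 and 149 CPM to 106 and 116 CPM, at -0.31 with the block (SE 0.05, adjusted p = 3.03e-06). Abcc5, a transporter of the same family, went from 85.0 and 100.1 CPM to 69.2 and 79.6 CPM, at -0.31 (SE 0.06, adjusted p = 2.67e-05). Abcc5 is a long gene of 10681 bases, and with the length trend removed Abcc1 and Abcc5 lay at -0.20 and -0.24 and still passed adjustment.

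By list, glutathione synthesis and cystine uptake had 3 of 8 genes higher and recycling and reduction 7 of 9. Breakdown and salvage had 7 of 11 higher, export 1 of 7, and the glyoxalases 2 of 3. Nrf2 and its partners had 3 of 7 higher and selenoprotein synthesis 4 of 9. Of the enzymes related to the members but outside the name rule, 6 of 9 were higher. Of the lipid peroxidation partners of Gpx4 none of 5 was, although their median log2 fold change was only -0.01. The lists were not set beside genes of similar length. Genes with an unadjusted p under 0.05 that did not pass with the block were Ggt5 at a log2 fold change of 0.72, Chac2 at 0.51, Ggt1 at -1.99 on fewer than 1 CPM, and Lrp8 at -0.21. Ggt1 and Ggt5 cut glutathione outside the cell, Chac2 degrades it inside, and Lrp8 takes up the selenium carrier Selenop.

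The core of the element through which Nrf2 binds DNA, TGACNNNGC on either strand, was sought in the windows from 250 bases before to 50 bases after each gene's start in the RefSeq promoters of GRCm38.p6. It was found for 4 of the 31 members with a window, or 12.9%, and for 14% of 27025 genes. The 4 were Gsta3, Gstm5, Gstm7 and Mgst1, whose log2 fold changes with PEDF were -0.29, 0.11, 0.70 and 0.30, and neither Gpx4 nor Gstp1 was among them. Only this exact core in these windows was sought. Variant forms, such as the tgagtcagc in the Gstp1 window, and sites farther away were not counted.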

How the data were processed

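Polyadenylated RNA of 4 MEF cultures was sequenced. Per the paper's methods and the submitters' processing notes, the authors checked reads with FastQC 0.11.7, trimmed them with Trimmomatic 0.38, aligned them with HISAT2 2.1.0 to mm10, converted the files with SAMtools 1.9 and took uniquely mapped reads into gene counts by featureCounts 1.6.3. They deposited these counts without normalization, and they also deposited TPM values. The annotation, strand setting and TPM conversion are not given in the sources used here. Of 55487 genes, 54784 had the positions of GENCODE release M21 (GRCm38), and gene lengths implied by counts and TPM equalled its exon lengths within 0.5 bases for 98.3% of 26133 genes. All rows name a gene, and the deposited files hold no per-sample column of other samples.

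Counts of genes with a total of at least 10 were tested with edgeR 4.0.16 in R 4.3.3 (TMM, robust quasi-likelihood test, Benjamini-Hochberg adjustment). The main test had no covariate, since the paper names none. The experiment as a block is a second fit, since the experiments used MEFs of different embryos. The difference between experiments in the controls correlated with that in the PEDF libraries (r = 0.423 over the 10722 genes whose mean log2 CPM was above 3, described across genes, which are not independent). SE is the log2 fold change divided by the square root of F. CPM uses TMM-scaled totals. Length was corrected by natural splines of 5 degrees of freedom in log2 length, fitted for each library and used as an offset. DESeq2 1.42.0 and limma 3.58.1 on log2(TPM + 1) were alternatives, as were other filters and factors and leaving out each library. The scripts were tested on simulated data.

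Counting intervals are exact binomial (Clopper-Pearson) at 95%, cover counting error only, and 3 counts, the limit that 0 allows, are 0.168 to 0.203 CPM. Shared windows are runs of 50 bases found in transcripts of another gene in GENCODE release M21. Members and lists were chosen with earlier results of these data known, and results for them are no independent support of those. Full values are given for members with a mean TPM of at least 10, with an unadjusted p under 0.05 without the block, or with an adjusted p under 0.05 with the block, for PEDF or for the experiment. Pathway genes are named by the same p limits for PEDF. Dpep2 has 2 rows and was left out. Sequences are from GENCODE M21 and RefSeq GRCm38.p6. The promoters of Gsta4 and Gstt2 were not analysed here. Other measurements in the paper were not used here.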

Additional observations from a re-analysis of the deposited data

How the results depend on the processing

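The count of all genes with an adjusted p under 0.05 for PEDF against control (1 in the test without a block) was 3 with DESeq2, 106 with no filter on low counts, 0 with edgeR's filterByExpr, 0 with limma on log2(TPM + 1), 726 with the replicate block, 119 with DESeq2 and the block, 350 with block and length correction, 421 with block, length and GC correction, and 2 to 205 with 1 library left out. The count of members (0) was 2 with the replicate block, with or without the corrections for length and for length and GC, 1 with DESeq2 and the block, and 0 with any library left out. The count of members at an unadjusted p under 0.05 (4) was 2 with DESeq2, 10 with the block, 5 with block and length correction, 5 with GC added, 2 with DESeq2 and the block, and 1 to 9 with 1 library left out. The median log2 fold change of the tested members (0.14) was 0.086 with block, length and GC correction, and 0.080 to 0.249 with 1 library left out. The count of pathway genes (0) was 2 with no filter, 3 with the block, 1 with DESeq2 and the block, 3 with block and length correction, 4 with GC added, and 0 to 3 with 1 library left out. The count of members for experiment 2 against experiment 1 (4) was 0 without the treatment term, 2 with length correction, 1 with DESeq2, and 0 to 3 with 1 library left out. Signs turned for Gsto1 at -0.050 with block and length correction, -0.049 with GC added and -0.018 with limma, and for Mgst3 at -0.0033 and -0.0046 with block and length and with GC added. With 1 library left out the log2 fold changes of genes that changed sign spanned -0.021 to 0.130 for Mgst3, -0.028 to 0.279 for Gstm2, -0.039 to 0.255 for Gstm5, -0.089 to 0.105 for Gsto1, -0.0087 to 0.237 for Gpx3 and -0.042 to 0.169 for Gstz1. Of 265 values of single genes under alternatives, 222 kept direction and side of the threshold, 21 lost an adjusted p under 0.05, 9 gained one and 13 changed sign. An adjusted p under 0.05 could be lost only for the experiment, where 4 members were called, and gained only for PEDF, where none was. The pooled count therefore does not measure how stable the calls were. Shares over all genes at an unadjusted p under 0.05 were taken only for edgeR without the block, with the block, and with block and length correction. Corrections for GC and sums with copies were chosen after seeing the data. The causes were not tested. In fits with 1 library in a group, that library is assumed to vary like the others. The block changed no other call of a member. Depth limits the members under 3.35 CPM most, since their counting intervals span more than 1 on the log2 scale.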

Other observations

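Gene copies outside the protein-coding rule carried counts of their own. Gpx4-ps2, a processed copy of Gpx4, had 395 and 428 counts in control libraries 1 and 2, 530 and 419 in PEDF libraries 1 and 2, and its log2 fold change with the block was 0.16 (SE 0.10, adjusted p = 0.450 in edgeR). Gstp-ps, a copy of Gstp1, had 70 and 83 counts in the controls and 82 and 112 with PEDF, at 0.30 (SE 0.20, adjusted p = 0.541). Gstm2-ps1 had 4 to 13 counts in a library, Gpx4-ps1 had 0 to 4, and Gpx2-ps1 had none.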
